A study of Mus musculus with 17 samples.

Results

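The 6 genes Hspd1, Hspe1, Hspa9, Trap1, Lonp1 and Clpp encode the folding machinery and the proteases of the mitochondrial matrix, and their RNA was measured in mouse hypothalamus. They were chosen by function, with earlier results of these data known. Every probe set that the platform annotation gives to 1 of these symbols was taken. This made 12 probe sets for 6 of the 12393 genes with a probe set of a single symbol. Hspd1 and Lonp1 had 1 probe set each, Hspe1, Trap1 and Clpp had 2 each, and Hspa9 had 4. All mice were male, of the C57Bl/6 strain and 9 weeks old, and each of the 17 Affymetrix arrays held the RNA of 1 hypothalamus. The 6 STZ mice were made diabetic with streptozotocin, which kills the pancreatic beta cells that make insulin, injected once into the peritoneum at 200 µg/g of body weight, and the labels do not say how long before the tissue was taken. The 5 ob/ob mice lack leptin throughout life, and the labels name no injection for them. The 6 control mice were wild type and received vehicle. The question was how each form of diabetes relates to gene expression in the hypothalamus.

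Most mitochondrial proteins are made in the cytosol and enter the matrix unfolded. Hspa9 (mortalin, the Hsp70 of the matrix) pulls them in and holds them, and Hspd1 (Hsp60) forms the barrel, with Hspe1 (Hsp10) as its lid, in which they fold. Trap1 is the Hsp90 of mitochondria, while Lonp1 and Clpp degrade proteins that misfold or are no longer needed. Heat shock factor drives many chaperone genes, and a mitochondrial stress response drives several of these members through transcription factors such as Atf4, Atf5 and Ddit3 (CHOP). In the mouse hypothalamus, Hsp60 has been linked to leptin and to mitochondrial function.

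Hspd1 and Hspe1 lie head to head on chromosome 1, and a stretch just upstream of the Hspe1 start, inside the Hspd1 span, is shown because these genes, each at its brightest probe set, had the lowest log2 fold changes of the 6 in both forms of diabetes. In RefSeq (GRCm38.p6), Hspd1 spans chr1:55077833-55088243 on the minus strand and Hspe1 spans chr1:55088148-55091317 on the plus strand, so that their spans share 96 bases. Of the other members with a promoter window, Trap1 lies at chr16:4039971-4077840 and Lonp1 at chr17:56614297-56626903, both on the minus strand, and Clpp at chr17:56990264-56996371 on the plus strand. The segment chr1:55088008-55088127 is given on the plus strand, with a run of alternating TTC and GAA units, the units that heat shock factor recognises, in capitals.
Hspe1 upstream segment: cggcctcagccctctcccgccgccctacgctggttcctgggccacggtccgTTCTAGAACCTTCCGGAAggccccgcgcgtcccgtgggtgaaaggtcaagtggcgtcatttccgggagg
The capitals cover chr1:55088059-55088076 and begin 89 bases before the Hspe1 start. Read on the minus strand, the same bases begin 144 bases before 1 of the annotated Hspd1 starts.

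Promoter windows of 300 bases (250 before and 50 after each annotated start) were searched on both strands for GAANNTTC and for TTCNNGAA, each of which reads the same on both strands and which can overlap, and for TGATGNAAT, an element of the C/EBP and ATF factors. Of 32851 windows, 15.1% held either of the heat shock patterns (7.86% GAANNTTC and 8.52% TTCNNGAA) and 0.965% held TGATGNAAT. The members had 6 windows, Hspd1 with 2 of them and Hspa9 with none in the table used. Both patterns occurred in the Hspe1 window and in 1 of the Hspd1 windows, at the shared bases. Clpp held TTCCGGAA 33 bases after its start. The windows of Trap1 and Lonp1 and the other Hspd1 window held neither pattern, and none of the 6 held TGATGNAAT.

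After the values were seen, the whole run of 4 units, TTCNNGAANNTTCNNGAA, was searched for too. It occurred in 5 of the 32851 windows (0.0152%), those of Arpc2, Chordc1, Fam149a, Hspd1 and Hspe1. The pattern is that of the run in the Hspe1 segment, so the Hspd1 and Hspe1 windows, which share those bases, held it by construction. Runs of 4 units that begin with GAA were not searched for, so the share is not that of all such runs. Those of Hspd1, Arpc2 and Chordc1 are set beside the Hspe1 segment because these genes were tested on the arrays, each on the strand of its own gene with the run in capitals.
Hspd1: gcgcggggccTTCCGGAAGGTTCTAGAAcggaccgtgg
Arpc2: TTCTGGAATATTCGCGAAaggggcaggt
Chordc1: TTCGGGAAAATTCCTGAA
The Hspd1 window is chr1:55087883-55088182 (minus strand), the Arpc2 window chr1:74236267-74236566 (plus strand) and the Chordc1 window chr9:18292017-18292316 (plus strand). A match is a sequence description and does not show that a factor binds there.

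None of the 10 member probe sets bright enough to be tested passed an adjusted p of 0.05 in any comparison. Signals are linear MAS5 values. Differences between groups are given on the log2 scale with the standard error (SE) of a limma model of all 17 arrays, and p-values were adjusted by the Benjamini-Hochberg method over 13576 probe sets. In STZ against control 0 of 10 passed, where 0.0516% of all probe sets did. In ob/ob against control 0 of 10 passed against 0.125%, and in ob/ob against STZ 0 of 10 passed against 0.0368%. At an unadjusted p under 0.05, 3 of 10 were below control in STZ mice and 0 above, where 8.24% of all probe sets reached that level, 4.38% below and 3.87% above control. In ob/ob mice it was again 3 below and 0 above, where 11.9% of all probe sets reached it, 6.12% below and 5.75% above control. In both cases these were the probe set of Hspd1 and both probe sets of Hspe1. Of ob/ob against STZ values, 0 of 10 reached it, where 3.93% of all did (1.93% higher in ob/ob and the rest lower). The STZ and ob/ob comparisons share their 6 control arrays, so they are not independent of each other.

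**Figure D1:**
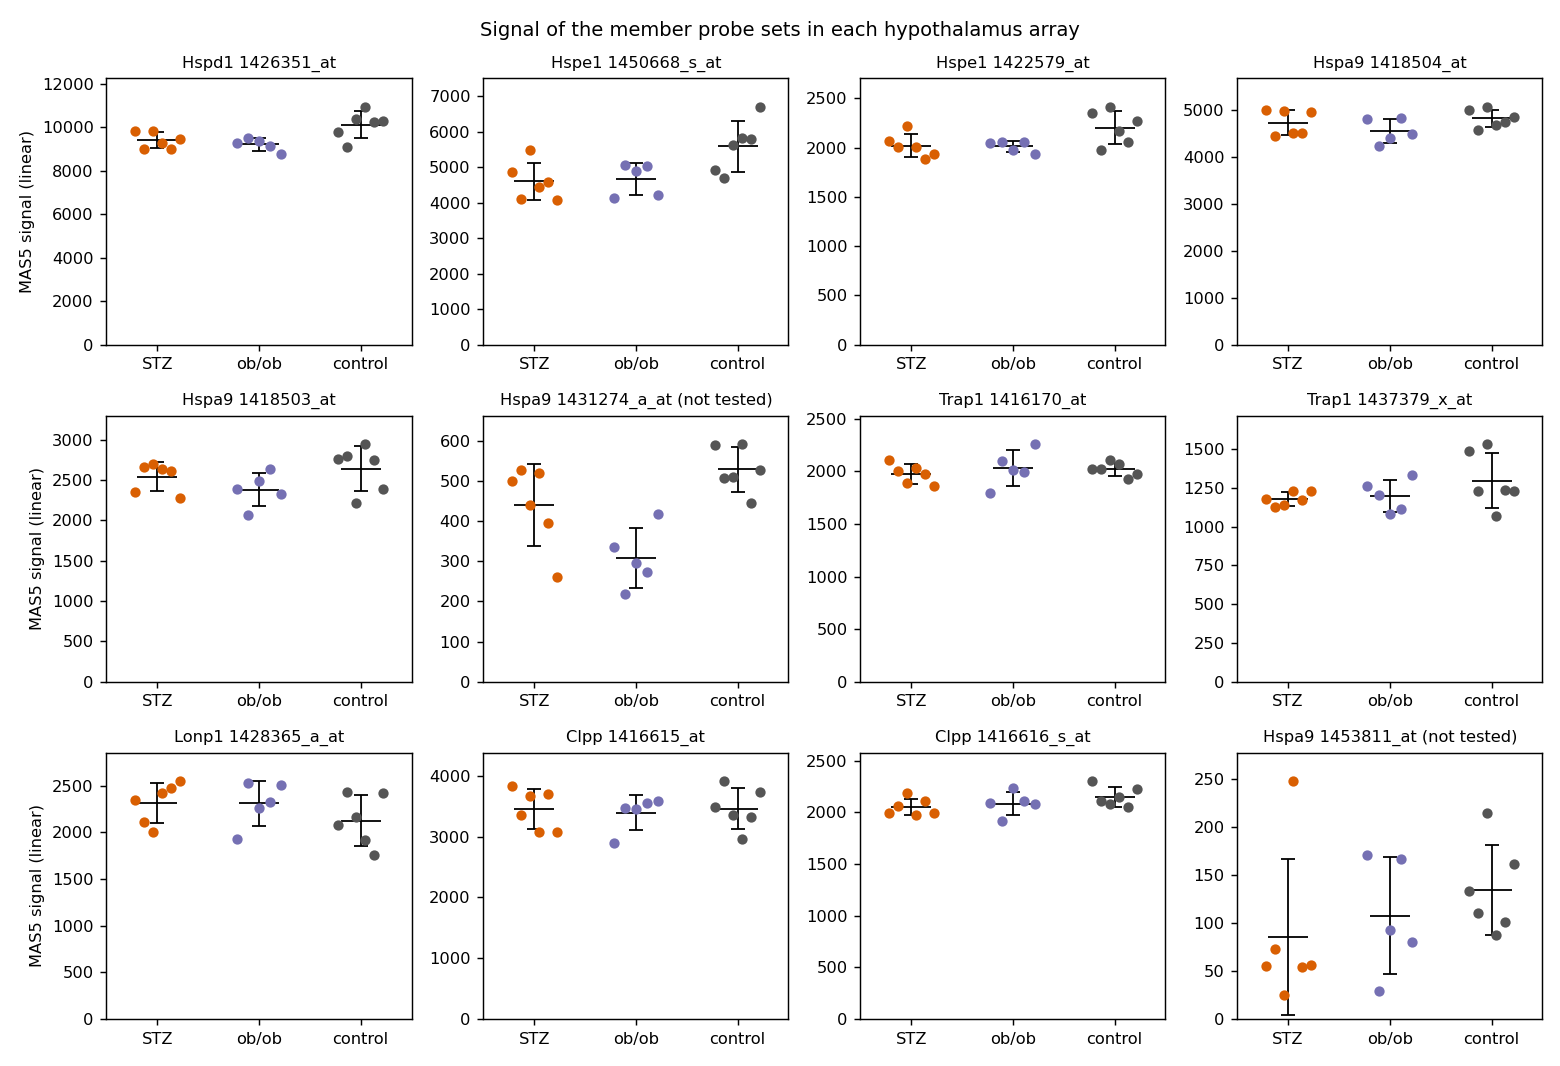
MAS5 signal (linear, from 0) of each of the 12 member probe sets, 1 point per array, for 6 STZ, 5 ob/ob and 6 control mice; the long bar is the group mean and the whiskers are 1 SD. Only for the untested Hspa9 probe set 1431274_a_at do groups not overlap, ob/ob and control, with the 5 ob/ob arrays between 218 and 418 and the 6 control arrays between 445 and 592.

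Hspd1, the barrel of the chaperonin, was measured by 1426351_at. Its signal ran from 8998 to 9834 in the 6 STZ arrays with a median of 9344, was 9265, 9479, 9369, 9152 and 8743 in the ob/ob arrays, and ran from 9093 to 10927 in the 6 control arrays with a median of 10258. All 6 STZ and all 5 ob/ob arrays lay below the control mean, but control replicate 2, the lowest control at 9093, lay within the range of both. The other 5 control arrays were above every ob/ob array, and 4 of them were above every STZ array. The log2 difference from control was -0.11 ± 0.042 (SE) in STZ mice (0.930-fold, 95% interval -0.19 to -0.02, limma adjusted p = 0.508). In ob/ob mice that difference was -0.13 ± 0.044 (0.911-fold, -0.23 to -0.04, adjusted p = 0.218). Between ob/ob and STZ mice it was -0.03 with an interval of -0.12 to 0.06.

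Hspe1, the lid, gave the lowest log2 values of the tested member probe sets, on its brighter probe set 1450668_s_at. The 6 STZ arrays ran from 4064 to 5490 with a median of 4515, the ob/ob arrays read 4131, 5060, 4876, 5023 and 4211, and the 6 control arrays ran from 4689 to 6693 with a median of 5701. Again every STZ and ob/ob array was below the control mean, and 4 control arrays were above all STZ and all ob/ob arrays. Control replicates 1 and 2, at 4906 and 4689, lay inside the range of both diabetic groups, and STZ replicate 3, at 5490, lay among the controls. The log2 fold change was -0.28 in STZ mice (0.824-fold, 95% interval -0.46 to -0.10, limma adjusted p = 0.339) and -0.26 ± 0.09 in ob/ob mice (0.837-fold, -0.44 to -0.07, adjusted p = 0.257). The ob/ob mean was 0.02 above the STZ mean on the log2 scale, with an interval of -0.17 to 0.21.

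The second Hspe1 probe set, 1422579_at, also had both diabetic groups below control, with smaller log2 differences. Its signals ran from 1882 to 2216 in STZ mice with a median of 2006, were 2042, 2057, 1978, 2054 and 1936 in ob/ob mice, and ran from 1973 to 2413 in control mice with a median of 2218. The 5 ob/ob arrays were close together (coefficient of variation 2.68%, against 7.75% in control) and 4 of the 6 control arrays lay above all of them. The log2 difference from control was -0.12 ± 0.055 in STZ mice (limma adjusted p = 0.555) and -0.13 ± 0.058 in ob/ob mice (adjusted p = 0.387). The gene table holds 7 pseudogenes named after Hspe1 and 23 named after Hspd1, and signal from transcripts of such copies cannot be told apart from that of the genes here.

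Exact two-sided permutation tests over arrays were run as well. For Hspd1 the exact p was 0.0346 in STZ against control and 0.0216 in ob/ob against control. For Hspe1 1450668_s_at it was 0.0173 and 0.039 in the same comparisons, and for 1422579_at 0.0563 and 0.0519. After adjustment over the 36 tests of 12 probe sets in 3 comparisons, these exact p of Hspd1 and Hspe1 were 0.259 to 0.273. The lowest of all, 0.156, was that of Hspa9 1431274_a_at in ob/ob against control. The smallest unadjusted p the design allows is 0.00216 for 6 against 6 arrays and 0.00433 for 5 against 6.

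**Figure D2:**
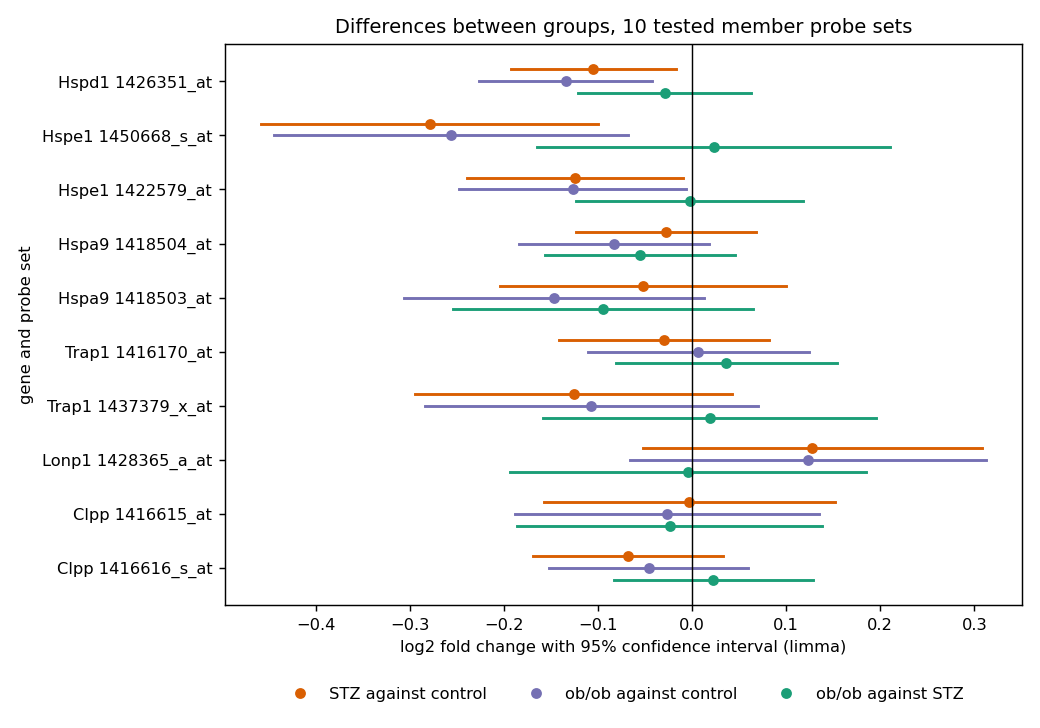
Log2 fold change (x axis) with its 95% confidence interval from limma for the 10 tested member probe sets (y axis), coloured by comparison. The intervals of Hspd1 and of both Hspe1 probe sets lie below 0 in both comparisons with control before adjustment, and every interval for ob/ob against STZ includes 0.

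Hspa9, which binds proteins as they enter the matrix, had 2 tested probe sets. The brighter, 1418504_at, ran from 4455 to 5006 in STZ mice with a median of 4740, was 4820, 4249, 4409, 4829 and 4498 in ob/ob mice, and ran from 4588 to 5073 in control mice with a median of 4812. The groups overlapped, and 3 STZ and 3 ob/ob arrays were below the lowest control. Its log2 fold change was -0.03 ± 0.046 in STZ mice (limma adjusted p = 0.908) and -0.08 ± 0.048 in ob/ob mice (adjusted p = 0.523). On 1418503_at it was -0.05 ± 0.073 (adjusted p = 0.890) and -0.15 ± 0.076 (adjusted p = 0.470). These probe sets varied almost independently of each other over the 17 arrays (r = 0.05). Agreement was also low between the 2 probe sets of Trap1 (r = 0.2) and of Clpp (r = 0.22), against 0.66 for Hspe1.

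The other Hspa9 probe sets, 1431274_a_at and 1453811_at, were below the signal limit for testing, a geometric mean of 435. On 1431274_a_at, just under that limit, the signals were 500, 527, 440, 519, 395 and 262 in STZ mice, 335, 218, 297, 274 and 418 in ob/ob mice, and 590, 508, 510, 592, 445 and 527 in control mice. All 5 ob/ob arrays were below all 6 control arrays, a separation seen in 1.91% of the tested probe sets and in none of the tested member probe sets. Between STZ and control mice the groups of all 12 member probe sets overlapped, against 0.567% of tested probe sets that did not, and so they did between ob/ob and STZ mice, against 0.420%. The ob/ob mean was 0.80 below control on the log2 scale, with an exact permutation p of 0.00433, the smallest 5 against 6 arrays can give, which was 0.156 after adjustment over the 36 tests. In a fit without the signal limit the limma adjusted p was 0.104. The corresponding STZ value was -0.29 on the log2 scale (limma adjusted p = 0.799 in that fit). The bright Hspa9 probe sets had log2 values of -0.08 and -0.15 in ob/ob mice, so the probe sets of this gene did not give 1 size of difference. The dimmest, 1453811_at, ran from 25 to 248 in STZ, 29 to 171 in ob/ob and 87 to 214 in control mice, with the 3 groups overlapping.

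Trap1, the mitochondrial Hsp90, had close group means on its brighter probe set 1416170_at. The signal was 1977 ± 93.2 in STZ mice (SD, n = 6), 2031 ± 168 in ob/ob mice (n = 5) and 2017 ± 64.6 in control mice (n = 6). The log2 fold change was -0.03 with a 95% interval of -0.14 to 0.08 in STZ mice and 0.01 with an interval of -0.11 to 0.12 in ob/ob mice (limma adjusted p = 0.914 and 0.979). On 1437379_x_at, a probe set of the kind open to cross-hybridization, it was -0.13 ± 0.081 and -0.11 ± 0.085 (adjusted p = 0.714 and 0.664). The control arrays of that probe set were spread from 1068 to 1532, and replicates 1 and 3 were the highest of all 17.

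Lonp1, the ATP-dependent protease of the matrix, was the member with values above control in both diabetic groups. On 1428365_a_at the 6 STZ arrays ran from 1999 to 2547 with a median of 2383, the ob/ob arrays read 1929, 2528, 2263, 2325 and 2505, and the 6 control arrays ran from 1754 to 2429 with a median of 2117. The groups overlapped widely: 2 STZ and 2 ob/ob arrays were above every control, and 2 control arrays were below every STZ and every ob/ob array. The log2 fold change was 0.13 ± 0.086 in STZ mice (95% interval -0.05 to 0.31, limma adjusted p = 0.734) and 0.12 ± 0.091 in ob/ob mice (-0.07 to 0.31, adjusted p = 0.642). Leaving out 1 array at a time moved the value between 0.0743 (without control replicate 5) and 0.169 (without STZ replicate 3) in STZ mice, and between 0.0697 (without control replicate 5) and 0.187 (without ob/ob replicate 1) in ob/ob mice.

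Clpp, the proteolytic subunit of the ClpXP protease, had group means of 3452 ± 333 in STZ mice (SD, n = 6), 3392 ± 287 in ob/ob mice (n = 5) and 3459 ± 335 in control mice (n = 6) on 1416615_at. Its log2 fold change was -0.003 ± 0.074 in STZ mice and -0.03 ± 0.077 in ob/ob mice (limma adjusted p = 0.994 and 0.93). On 1416616_s_at it was -0.07 ± 0.048 and -0.05 ± 0.051 (adjusted p = 0.757 and 0.773). Its partner Clpx, the unfoldase that feeds Clpp, stood at -0.04 in STZ mice and 0.02 in ob/ob mice on the log2 scale.

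Over the 6 genes, each taken at its brightest probe set, the median log2 fold change was -0.03 in STZ mice with 5 of 6 below 0, beside 0.0042 over the 7954 tested genes. In ob/ob mice it was -0.06 with 4 of 6 below 0, beside 0.0051, and between ob/ob and STZ mice it was -0.01 beside 0.0022. Over all probe sets, values below 0 made up 49.7%, 50.2% and 50.1% in the same order of comparisons.

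Hspd1 and Hspe1 also varied together from array to array, with each member taken at its brightest probe set. Over the 17 arrays their log2 signals had Pearson's r = 0.81 (permutation p = 0.00011, adjusted over 15 member pairs 0.00165) and Spearman's rho = 0.78 (permutation p = 0.00041, adjusted 0.00615). Without the 2 arrays farthest from the Hspd1 median r was 0.8, and with the group means removed it was 0.69. It was 0.7 within the 6 STZ arrays and 0.74 within the 6 control arrays, and 5 ob/ob arrays are too few for a value. No other pair passed adjustment. Hspd1 with Hspa9 had r = 0.49 and Hspd1 with Lonp1 r = -0.52 (permutation, adjusted p = 0.243 for each), and the median over the 15 pairs was 0.08.

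**Figure D3:**
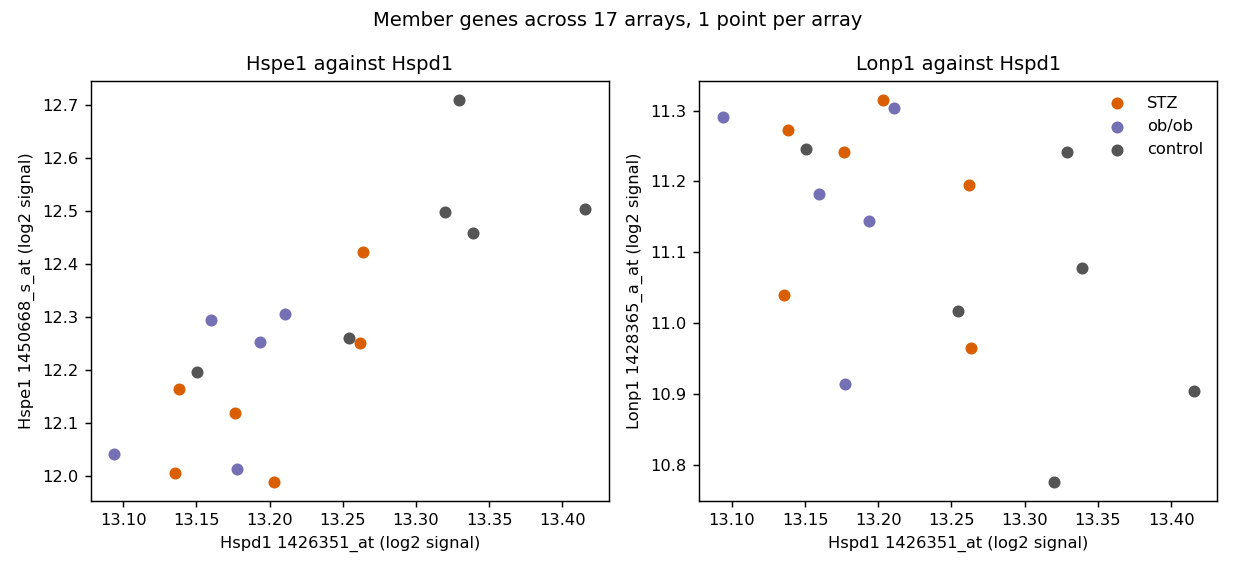
Log2 signal of Hspe1 (left) and Lonp1 (right) against that of Hspd1, 1 point per array, coloured by STZ, ob/ob and control. Hspe1 follows Hspd1 across the 17 arrays (r = 0.81). For Lonp1 r was -0.52, which did not pass adjustment over the 15 member pairs (permutation, adjusted p = 0.243).

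The genes most like each member were taken as the 3 highest Pearson correlations of log2 signal over the 17 arrays among 7953 other genes, as a description. For Hspd1 they were Hsph1, a cytosolic chaperone of the Hsp110 family (r = 0.953), Dynlrb1, a dynein light chain (0.877), and Ugcg, which makes glucosylceramide (0.874). For Hspe1 they were Smpdl3a (0.935), Gng11 (0.906) and Rpgrip1 (0.887). For Hspa9 they were Rnf149 (0.84), Bag2, a co-chaperone of Hsp70 (0.809), and Fn3k (0.808). For Trap1 they were Dpm2 (0.815), Atad3a, a protein of the inner mitochondrial membrane (0.809), and Tlnrd1 (0.787). For Lonp1 they were Cbx7 (0.876), Hand1 (0.824) and Cavin1 (0.791), and for Clpp Rhbdd2 (0.791), Lta4h (0.789) and Akt1 (0.775). No gene appears in the list of more than 1 member.

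Around the members, no list of mitochondrial genes held a gene past the threshold. For these lists, a gene is said to stand at its log2 fold change against control, with the SE. Beside the list counts below, 8.24% of all probe sets in STZ mice and 11.9% in ob/ob mice had an unadjusted p under 0.05. Of 8 tested partners of the matrix chaperones, 0 passed in either comparison with control by limma, and 3 had an unadjusted p under 0.05 in each, all below control. In STZ mice the smallest p were those of Dnajc15, a J protein of the inner membrane, at -0.10 ± 0.044, and Dnaja3, a J protein that works with Hspa9, at -0.13 ± 0.057 (adjusted p = 0.555 and 0.557). In ob/ob mice they stood at -0.14 ± 0.046 and -0.16 ± 0.06 (adjusted p = 0.235 and 0.298). The third was Pam16, a subunit of the import motor, at -0.14 in STZ mice and -0.16 in ob/ob mice. The median of the list was -0.01 in both.

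A list of other mitochondrial proteases, which also holds partner proteins such as Clpx, Phb2 and Stoml2, had 14 tested genes. Of these, 0 passed by limma, with 3 at an unadjusted p under 0.05 in STZ mice, all below control, and 3 in ob/ob mice, 1 of them below. Pmpcb, the catalytic subunit of the protease that removes import signals, had the smallest p in both. Its signal ran from 2570 to 3077 in STZ mice, 2320 to 3033 in ob/ob mice and 2920 to 3717 in control mice, so the groups overlapped. Pmpcb had a log2 fold change of -0.23 ± 0.068 in STZ mice (adjusted p = 0.315) and -0.30 ± 0.071 in ob/ob mice (adjusted p = 0.0881). Next came Immp1l, an inner membrane peptidase, at -0.13 ± 0.054 in STZ mice (adjusted p = 0.542) and Afg3l2, a subunit of the m-AAA protease, at 0.17 ± 0.062 in ob/ob mice (adjusted p = 0.288). The list medians were -0.001 and 0.01.

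Of 18 genes of mitochondrial import, 0 passed by limma. In STZ mice 3 had an unadjusted p under 0.05, 2 of them below control, and in ob/ob mice 0 did, and the median was -0.04 in both. The smallest p in STZ mice were those of Timm10, a chaperone of the intermembrane space, at -0.17 ± 0.06 (adjusted p = 0.432), and Tomm7, a subunit of the outer membrane pore, at -0.21 ± 0.076 (adjusted p = 0.459). In ob/ob mice they were those of Tomm40l at -0.13 ± 0.069 and Tomm7 at -0.14 ± 0.079 (adjusted p = 0.495 and 0.503). For the mitochondrial stress response and mitochondrial biogenesis 12 genes were listed, regulators and others such as Asns and Chac1, and 9 were tested. The heat shock factor genes Hsf1 and Hsf2, and Trib3, were on the list but not tested. Of the 9, 0 passed by limma, and 1 had an unadjusted p under 0.05, Atf5 in ob/ob mice at -0.17 ± 0.067 (adjusted p = 0.308). Cebpb stood next in ob/ob mice at 0.18 ± 0.14, and in STZ mice the smallest p were those of Tfam, which packs mitochondrial DNA, at -0.11 ± 0.055, and Cebpb at 0.18 ± 0.13 (limma adjusted p at least 0.624). Atf4 and Ddit3 had log2 values of 0.03 and 0.03 in STZ mice and 0.002 and -0.12 in ob/ob mice. The 13 genes taken for mitochondrial content, such as Cs and Vdac1, had medians of -0.03 in both comparisons, with 0 past the threshold and 1 in STZ and 2 in ob/ob mice at an unadjusted p under 0.05.

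**Figure D4:**
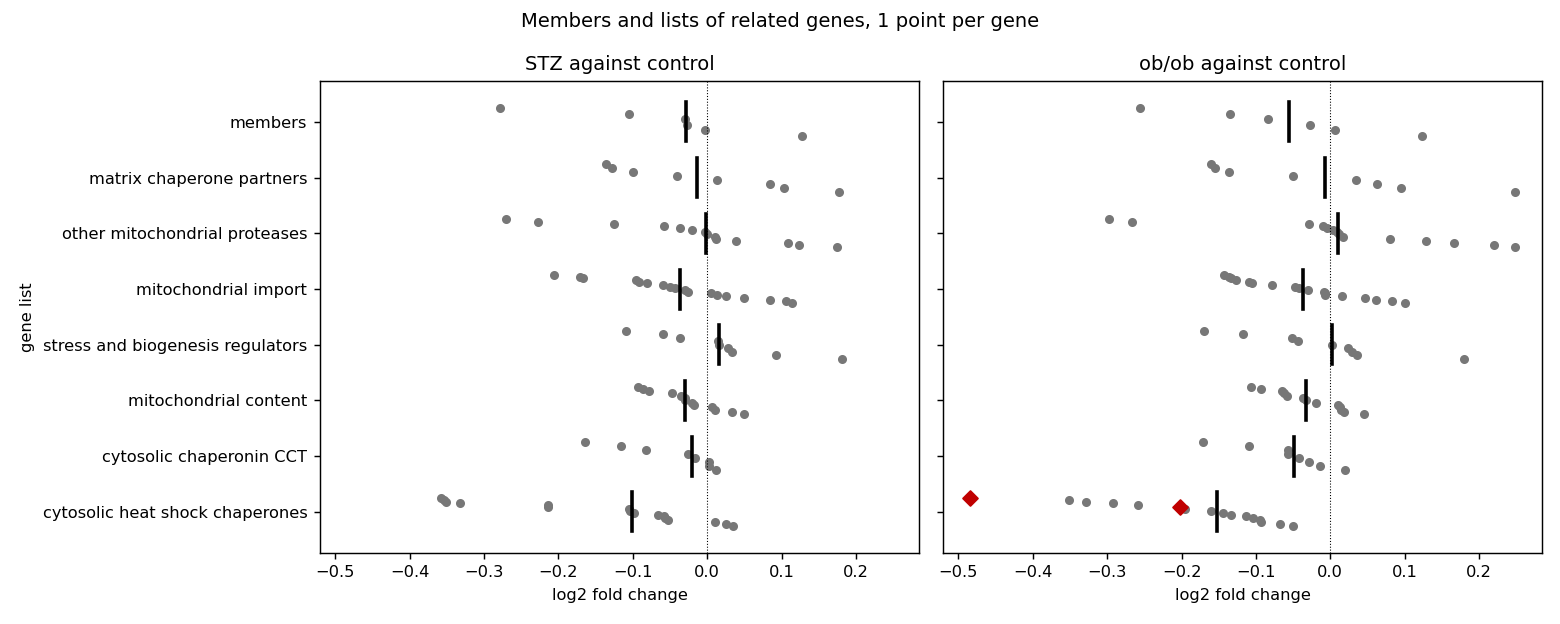
Log2 fold change (x axis) of the 6 members and of the 7 lists of related genes (y axis), 1 point per gene at its brightest probe set, for the STZ (left) and ob/ob mice (right), each against control; the bar is the median, and red diamonds passed an adjusted p of 0.05 by limma. The 2 diamonds are Chordc1 and Cacybp in ob/ob mice, and all 16 cytosolic heat shock genes lie below 0 there.

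Outside mitochondria, of 16 cytosolic heat shock genes, 0 passed in STZ mice by limma, where 0.0516% of all probe sets did. There 6 had an unadjusted p under 0.05, all below control, and the median was -0.10. In ob/ob mice 2 passed, both below control, where 0.125% of all probe sets passed. There 8 had an unadjusted p under 0.05, all below control, and the median was -0.15. Chordc1, a co-chaperone of Hsp90 and 1 of the 5 genes with the run of 4 units, read 1967 to 2280 in ob/ob mice and 2601 to 3247 in control mice with no overlap, a log2 fold change of -0.48 ± 0.078 (adjusted p = 0.0121). In STZ mice it read 1890 to 2798 at -0.35 ± 0.075 (adjusted p = 0.103). Cacybp, which binds a ubiquitin ligase and Hsp90, fell by 0.20 on the log2 scale in ob/ob mice (adjusted p = 0.0305). With the level of markers of neighbouring brain regions as a covariate, 0 of all probe sets passed in that comparison, so both calls were lost. Of the other genes named by the rule, Cryab, a small heat shock protein, stood at -0.35 in STZ mice (adjusted p = 0.172). Arpc2, a subunit of the actin-branching complex that also carries the run, stood at 0.02 in STZ mice and 0.06 in ob/ob mice (limma adjusted p = 0.924 and 0.676). The run was searched for after values were seen, and its relation to expression was not tested. The 8 subunits of the cytosolic chaperonin CCT had medians of -0.02 in STZ mice and -0.05 in ob/ob mice with 0 past the threshold, and 3 and 2 of them had an unadjusted p under 0.05.

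The tissue can hold parts of neighbouring brain regions, and bulk RNA cannot tell fewer cells of a type from less RNA per cell. Of 13 hypothalamic markers 9 were tested, among them Pomc, Npy, Hcrt and Oxt, while Nr5a1 and Nkx2-1 were under the signal limit and Agrp and Pmch had no probe set of a single symbol. In each comparison with control 7 of the 9 were below control and 2 above. Pomc passed in both, at -0.65 in STZ mice (limma adjusted p = 0.0384) and -0.75 in ob/ob mice (adjusted p = 0.0121). The ob/ob call of Pomc was also lost with the neighbouring-region covariate, where 0 of all probe sets passed. The mean log2 level of the 9 ran from 11.42 to 11.75 in STZ, 11.29 to 11.53 in ob/ob and 11.56 to 11.82 in control mice. For 11 tested markers of striatum, cortex and thalamus, of 21 listed, the mean log2 level was 10.7 to 11.09 in STZ, 10.995 to 11.219 in ob/ob and 10.47 to 11.03 in control mice (exact permutation p = 0.13 for the STZ and 0.013 for the ob/ob arrays, each against control). With that level as a covariate the ob/ob value was -0.14 for Hspd1, -0.185 for Hspe1 1450668_s_at and -0.06 for 1422579_at, the last less than its value without the covariate by over 1.5 times, and the STZ values were -0.11, -0.24 and -0.09. The ob/ob value of Hspa9 1418503_at was -0.28 and that of Lonp1 was 0.22 in that fit, each over 1.5 times its size without the covariate, as was the STZ value of Hspa9 1418503_at at -0.13. The brighter Hspa9 probe set, 1418504_at, was at -0.0401 in ob/ob mice and -0.00434 in STZ mice, and the median of the 6 genes in ob/ob mice was -0.0275, each smaller than without the covariate by over 1.5 times. These values carry no call in either fit. Of the tested markers of 5 brain cell types, 0 passed by limma in either diabetic group. At an unadjusted p under 0.05 were 3 in STZ mice and 7 in ob/ob mice, beside 8.24% and 11.9% of all probe sets. In STZ mice these were 1 of 6 neuron, 1 of 6 astrocyte and 1 of 5 endothelium and pericyte markers. In ob/ob mice 1 of 6 astrocyte, 1 of 5 oligodendrocyte and 1 of 5 microglia markers reached it. So did 1 above and 1 below control among the 6 neuron markers, and likewise among the 5 of endothelium and pericytes. All 5 tested microglia markers in ob/ob mice and 4 of 5 in STZ mice were below control (medians -0.104 and -0.051), and their mean log2 level was 10.92 to 11.08 in STZ, 10.78 to 11.06 in ob/ob and 11.02 to 11.24 in control mice. The lowest of them was Cx3cr1, a chemokine receptor, at -0.49 in ob/ob mice (adjusted p = 0.106). Of 6 astrocyte markers, 1 in ob/ob mice and 3 in STZ mice were below control, among them the water channel Aqp4 at -0.29 in ob/ob mice (adjusted p = 0.0558) and -0.26 in STZ mice (adjusted p = 0.134). The list medians in STZ and ob/ob mice were -0.039 and -0.044 for 6 neuron markers, 0.0 and 0.083 for 5 of oligodendrocytes, and -0.021 and -0.053 for 5 of endothelium and pericytes. The part of these cell types in the members' values was not tested. The ratios of 3 prime to 5 prime signal of Gapdh and Actb, a sign of RNA quality, had exact permutation p of 0.355 or more in every comparison.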

How the data were processed

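The deposited values are of the unit intensity: 1 MAS5 signal per probe set and array on a linear scale (MAS5 per the submitters' processing notes; its version and scaling target are not given in the sources used here). Per the labels' protocols, 10 µg of RNA from each hypothalamus was primed with oligo(dT) and made into biotin-labelled cRNA. Of 22690 probe sets, 64 controls were left out. Between arrays, correlations lay between 0.9543 and 0.9724, and 0 pairs were identical. Signals were taken as log2 with no pseudocount, and only the 13576 probe sets whose mean log2 signal reached the 40th percentile (435 as a geometric mean) were tested. The brightest probe set stood for a gene, and _x_at probe sets did so only where there was no other.

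The 3 group means were estimated in a single limma fit (version 3.58.1 under R 4.3.3, trended eBayes), with Benjamini-Hochberg adjustment over all probe sets tested and a threshold of 0.05. Intervals are 95% and unadjusted. Exact permutation tests and correlations (100000 resamples) used SciPy 1.17.1. The fit was tested on simulated data. The number of arrays limits the precision; the median SE over all tested probe sets was 0.0808 for the STZ and 0.0847 for the ob/ob comparison with control. The labels give 1 hypothalamus per array and no batch, date or pairing.

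The members and gene lists were chosen with earlier results of these data known. All member probe sets are named; of most other lists, the genes past the threshold and the 2 with the smallest p in each comparison with control. Values of Pam16, Clpx, Atf4, Ddit3 and Arpc2, and the genes that stand for a list, were chosen after values were seen. Gene names came from the platform annotation, and positions and promoter windows from RefSeq (GRCm38.p6), where 5 of 6 members had a window. Alternatives were 2 other filters, quantile normalization, a pseudocount of 64, other variance models, array weights, 2 groups in the fit, a covariate of neighbouring-region markers, a replicate block, the mean of a gene's probe sets, and leaving out each array.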

Additional observations from a re-analysis of the deposited data

Results flagged for a closer look

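In 36 groups of member arrays, 1 array stood far from the rest of its group. For Clpp on 1416615_at, ob/ob replicate 1 had a signal of 2887.7, while the other 4 ob/ob arrays lay between 3460.5 and 3592.3. On the log2 scale the gap was 0.829 of the group's range. Chance sets apart about 1 in 20 groups. Without that array the Clpp log2 fold change in ob/ob against control was 0.03, against -0.03 with it, and neither passed the threshold.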

How the results depend on the processing

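Counts and medians of the members had 131 alternatives together, and in those run for the counts each count stayed at 0 past the threshold. Of 664 single member values, 0 passed it, though those from the mean of a gene's probe sets were not tested. The median of the 6 genes ran from -0.0589 to -0.0153 in STZ against control, from -0.0828 to -0.0275 in ob/ob against control, and from -0.032 to 0.0459 in ob/ob against STZ, where it was above 0 in 4 of 22, among them without ob/ob replicate 1. The lowest adjusted p of limma was 0.0921 for Hspd1 and 0.138 for Hspe1 1450668_s_at, both in ob/ob against control without control replicate 2; over the alternatives they reached 0.624 and 0.762. The replicate numbers did not pair the arrays (correlations of same-numbered arrays -0.165 to 0.109, own number best in 1 of 6, 0 of 5 and 2 of 5). With a replicate block 0 member probe sets passed in each comparison, and over all probe sets 5, 19 and 1 passed. Over all probe sets the 7 calls of STZ against control became 0 without STZ replicate 4 or 5 and 18 without STZ replicate 1. The 17 of ob/ob against control became 8 without control replicate 1, 43 without control replicate 4, 38 with array weights and 0 with the neighbouring-region covariate. The 5 of ob/ob against STZ ran from 1 to 10. The sign differed from the main value in 47 single values, at most 0.0605 in size, none past the threshold. In STZ against control, Clpp 1416615_at was 0.00674 with array weights, 0.0443 with the covariate and -0.0465 to 0.0336 over left-out arrays. In ob/ob against control, Clpp 1416615_at was 0.0605 with the covariate and -0.0704 to 0.0302 over left-out arrays. Trap1 1416170_at was -0.000752 with quantile normalization, -0.000708 with array weights, -0.0149 with the covariate, -0.00584 with the replicate block and -0.0328 to 0.0498 over left-out arrays. Trap1 1437379_x_at was 0.0172 with the covariate, and with the mean of its probe sets Trap1 was -0.0504. In ob/ob against STZ, array weights gave 0.00448 for Hspe1 1422579_at and -0.0121 for Trap1 1437379_x_at. The covariate gave 0.0162 for Clpp 1416615_at, 0.0287 for Hspe1 1422579_at and 0.0391 for Lonp1, and the replicate block gave 0.0294 for Lonp1. Left-out arrays there gave -0.0566 to 0.033 for Clpp 1416615_at, -0.00265 to 0.053 for Clpp 1416616_s_at, -0.0222 to 0.0249 for Hspe1 1422579_at, -0.0111 to 0.0758 for Hspe1 1450668_s_at, -0.0459 to 0.0587 for Lonp1, -0.00289 to 0.0797 for Trap1 1416170_at and -0.0203 to 0.0544 for Trap1 1437379_x_at. The cause of these differences was not tested.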
